A study of Mus musculus with 12 samples.

Results

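The fetal liver and imprinted growth genes described here were H19, Igf2, Afp, Gpc3, Cdkn1c, Zbtb20 and Zhx2. They were found by matching the Ensembl identifiers of the liver count table to these symbols, and made up 7 of the 46078 genes listed. H19 was put among them because it was higher after VSG in these livers. Its values in both comparisons that involve VSG are therefore a description, with no test. Livers came from male C57BL/6 mice (C57BL/6J in the study's methods) made obese with a high fat diet, aged 21 weeks. VSG mice had a vertical sleeve gastrectomy, Sham-WM mice had sham surgery and then restricted food so that their weight matched that of the VSG mice, and Sham-Ad lib mice had sham surgery and unrestricted food. There were 4 mice in each group, all culled on day 16 after surgery after 5 h without food. Poly(A) RNA of each liver made 1 directional library, with a total between 15122520 and 19384076 counts on genes.

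H19 and Igf2 are neighbouring imprinted genes that share enhancers: the maternal chromosome makes the H19 noncoding RNA, and the paternal chromosome makes IGF2, a fetal growth factor. Cdkn1c, a cyclin-dependent kinase inhibitor, is a maternally expressed gene of the adjacent imprinted domain. The fetal liver makes H19, Igf2, alpha-fetoprotein (Afp) and glypican 3 (Gpc3) at high levels and shuts them down after birth, and the repressors ZBTB20 and ZHX2 take part in that shutdown.

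On mm10, H19 lies on the minus strand at chr7:142575529-142578143 and Igf2 on the same strand at chr7:142650766-142666816, followed by Cdkn1c at chr7:143458339-143461050. H19 is the host of miR-675, whose hairpin lies wholly within an H19 exon, over 84 bases, while the hairpin of miR-483 lies in an intron of Igf2. The mature sequences are shown because they are the small RNA products of the imprinted pair. They are RefSeq entries on GRCm38.p6, written 5′ to 3′ with the seed (bases 2 to 8) in capitals.
miR-675-5p: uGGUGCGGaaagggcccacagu
miR-675-3p: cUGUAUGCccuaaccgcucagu
miR-483-5p: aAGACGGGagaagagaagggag
miR-483-3p: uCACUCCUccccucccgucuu
The seeds differed from each other, and 0 other mature mouse miRNAs in the table carried any of them. The rows of Mir675 and Mir483 had 0 counts in every library. Mature miRNAs have no poly(A) tail and were not measured by these libraries.

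H19 had 8, 18, 9 and 6 counts in Sham-Ad lib mice 3F, 4F, 6F and 10F. It had 3, 6, 7 and 15 counts in Sham-WM mice 2F, 9F, 15F and 16F, and 74, 45, 13 and 29 in VSG mice 1F, 8F, 11F and 18F. In counts-per-million units (CPM), scaled by TMM factors, the Sham-Ad lib livers had 0.446, 0.966, 0.487 and 0.376. The Sham-WM livers had 0.153, 0.307, 0.357 and 0.844 CPM, and the VSG livers 4.42, 2.30, 0.979 and 1.65. Mouse 1F was the highest of all, and 11F was the lowest VSG liver. The VSG livers lay above all 4 Sham-WM livers, but above the Sham-Ad lib livers only by the distance from 11F to 4F, which had 0.979 and 0.966 CPM. Those values come from 13 and 18 counts, and their 95% Poisson intervals were 0.521 to 1.67 and 0.572 to 1.53 CPM, which cover counting error only. Scaled by library totals alone, 11F had 0.860 CPM and 4F had 0.994, so that the groups overlapped. With median-of-ratios factors they overlapped too, at 0.947 and 0.956, and with upper quartile factors they did not, at 0.992 and 0.975. The absence of overlap with Sham-Ad lib thus depended on the scaling, which was examined after the data had been seen.

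Mean H19 was 0.569 ± 0.269 CPM (SD, n = 4) in Sham-Ad lib, 0.415 ± 0.299 (SD, n = 4) in Sham-WM and 2.34 ± 1.49 (SD, n = 4) in VSG. The fitted log2 fold change of VSG was 2.02 (SE 0.52) against Sham-Ad lib and 2.50 (SE 0.54) against Sham-WM. Both comparisons chose the gene, so neither was tested. Among all genes tested, 9.21% had no overlap between VSG and Sham-Ad lib and 26.2% between VSG and Sham-WM. Without mouse 1F the log2 fold changes were 1.53 and 2.00. Against Sham-WM the value was 0.70 when libraries were grouped by a second field of the sample labels, and 1.75 with 2 RUVs factors. The low-count filter asked for 0.559 CPM of the library total in at least 4 livers, which H19 reached in all 4 VSG livers but in only 1 liver of each sham group, 4F and 16F. It was thus kept through the VSG livers alone, and its fitted log2 fold change of -0.48 (SE 0.59) for Sham-WM against Sham-Ad lib is also given with no test. The sham groups overlapped, and that value was -1.05 without mouse 16F and -0.0949 without mouse 4F.

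**Figure D1:**
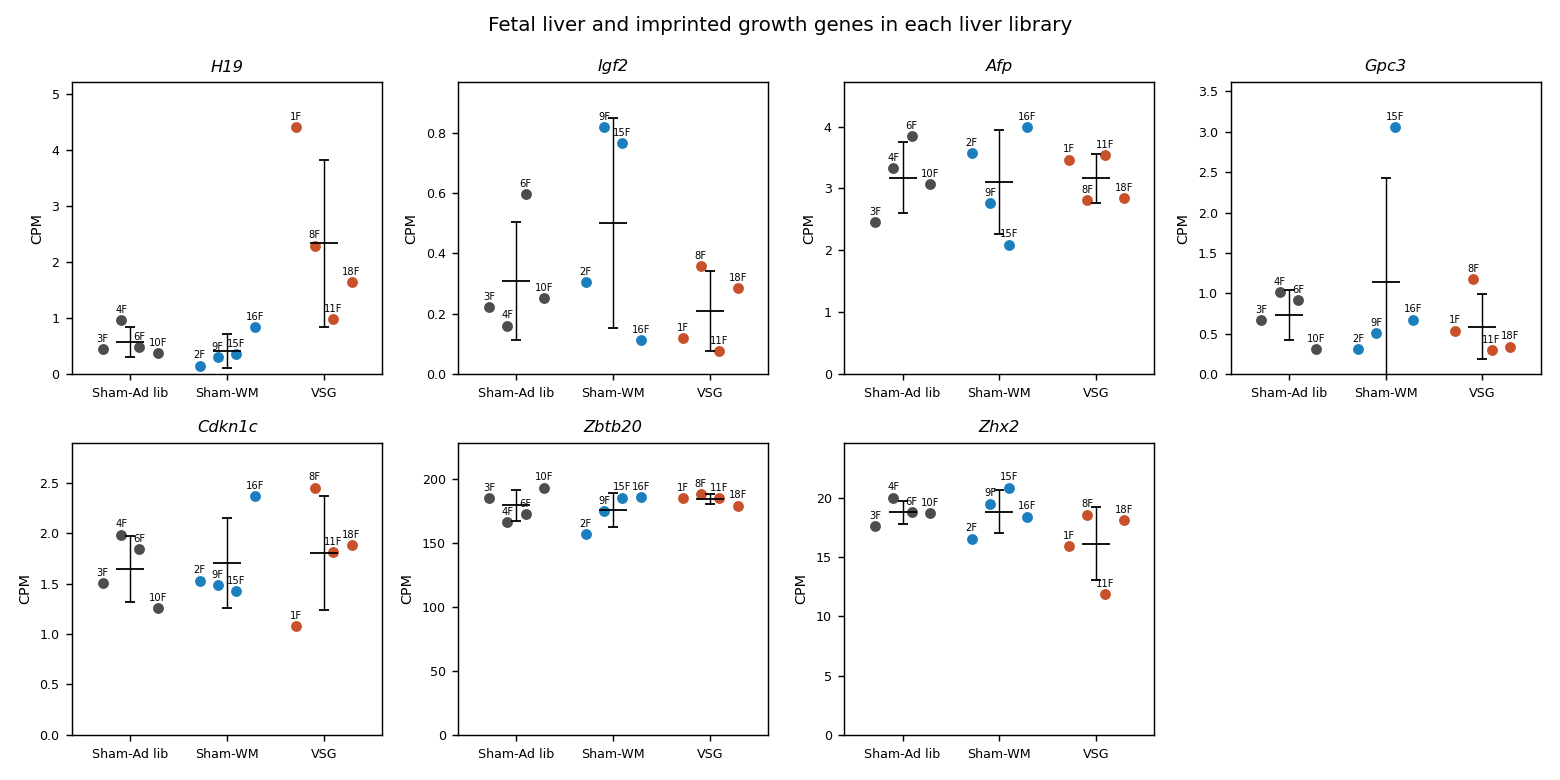
CPM (vertical axes, from 0) of the 7 genes in each of the 12 livers, labelled by animal number, with the mean and SD (n = 4) of each group in black. H19 was highest in VSG mouse 1F at 4.42 CPM, Gpc3 stood apart in Sham-WM mouse 15F at 3.06 CPM, and the groups overlapped for every gene except H19, whose VSG livers lay above both sham groups, by a margin over Sham-Ad lib that was absent with library totals or median-of-ratios factors, while its sham groups overlapped.

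Igf2, the growth factor gene next to H19, had so few counts that it failed the low-count filter. Its counts were 4, 3, 11 and 4 in Sham-Ad lib mice 3F, 4F, 6F and 10F, and 6, 16, 15 and 2 in Sham-WM mice 2F, 9F, 15F and 16F. VSG mice 1F, 8F, 11F and 18F had 2, 7, 1 and 5. Mice 9F and 15F were highest, and the groups overlapped. Means were 0.308 ± 0.195 CPM (SD, n = 4) in Sham-Ad lib, 0.501 ± 0.346 (SD, n = 4) in Sham-WM and 0.209 ± 0.134 (SD, n = 4) in VSG. The difference in log2 CPM was -0.39 for VSG against Sham-Ad lib (two-sided exact permutation p = 0.429), 0.43 for Sham-WM against Sham-Ad lib (exact p = 0.457) and -0.81 for VSG against Sham-WM (exact p = 0.200). Adjusted over the 3 comparisons, each exact p was 0.457. The smallest unadjusted p that 4 against 4 livers can give is 0.0286, which becomes 0.0857 after adjustment when 1 comparison alone reaches it, so that a difference in 1 comparison could not have passed 0.05. With this exact test, its adjustment and this group size, no such difference in Igf2 was detectable. In GENCODE, Igf2 shares 3596 exon bases on its strand with the gene Gm49394, which has no row in the table, so reads of the pair cannot be separated.

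Cdkn1c, the growth inhibitor, was measured in all livers. Sham-Ad lib mice 3F, 4F, 6F and 10F had 1.51, 1.99, 1.84 and 1.25 CPM. Sham-WM mice 2F, 9F, 15F and 16F had 1.53, 1.48, 1.43 and 2.36 CPM, and VSG mice 1F, 8F, 11F and 18F had 1.08, 2.45, 1.81 and 1.88. The lowest and the highest liver were both VSG livers, and the groups overlapped. The log2 fold change of VSG was 0.13 (95% interval -0.49 to 0.75) against Sham-Ad lib and 0.09 (-0.52 to 0.71) against Sham-WM, with edgeR adjusted p of 0.807 and 0.834. That of Sham-WM against Sham-Ad lib was 0.04 (-0.58 to 0.66, edgeR adjusted p = 0.958).

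Afp, the fetal counterpart of albumin, lies at chr5:90490737-90508907. It had 2.46, 3.33, 3.84 and 3.07 CPM in Sham-Ad lib mice 3F, 4F, 6F and 10F, 3.57, 2.76, 2.09 and 4.00 in Sham-WM mice 2F, 9F, 15F and 16F, and 3.47, 2.81, 3.54 and 2.84 in VSG mice 1F, 8F, 11F and 18F. The ranges lay over each other, with the lowest and the highest liver both in Sham-WM. The log2 fold change was -0.01 for VSG against Sham-Ad lib (95% interval -0.50 to 0.48), -0.03 for Sham-WM against Sham-Ad lib (-0.52 to 0.45) and 0.03 for VSG against Sham-WM (-0.46 to 0.52). The edgeR adjusted p were 0.985, 0.956 and 0.944.

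Gpc3, the glypican of fetal liver and liver tumours, lies at chrX:52272426-52613950. It had 0.670, 1.02, 0.920 and 0.314 CPM in Sham-Ad lib mice 3F, 4F, 6F and 10F. Sham-WM mice 2F, 9F, 15F and 16F had 0.306, 0.512, 3.06 and 0.675 CPM, and VSG mice 1F, 8F, 11F and 18F had 0.538, 1.17, 0.301 and 0.341. Mouse 15F, with 60 counts, stood apart from the others, and the groups overlapped. The log2 fold change was 0.63 for Sham-WM against Sham-Ad lib (95% interval -0.80 to 2.06, edgeR adjusted p = 0.645) and -0.56 without mouse 15F. It was -0.91 for VSG against Sham-WM (-2.37 to 0.56, edgeR adjusted p = 0.335) and 0.28 without mouse 15F, so the direction in both rested on that liver. VSG against Sham-Ad lib gave -0.28 (-1.80 to 1.24, edgeR adjusted p = 0.833). That value was -0.91 without VSG mouse 8F and -0.0838 without Sham-Ad lib mouse 4F.

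Zbtb20, which encodes a zinc finger repressor of Afp, lies at chr16:42875881-43642602 and had the most counts of the 7 genes. Sham-Ad lib livers had between 167 and 194 CPM, Sham-WM livers between 157 and 186 and VSG livers between 180 and 188. The VSG range lay within the Sham-Ad lib range. The log2 fold change was 0.04 for VSG against Sham-Ad lib (95% interval -0.16 to 0.24), -0.03 for Sham-WM against Sham-Ad lib (-0.23 to 0.17) and 0.07 for VSG against Sham-WM (-0.13 to 0.27). The edgeR adjusted p were 0.826, 0.902 and 0.615.

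Zhx2, which encodes a homeobox repressor needed to silence both Afp and H19 in adult mouse liver, lies at chr15:57694665-57839832. It had 17.6, 20.0, 18.8 and 18.7 CPM in Sham-Ad lib mice 3F, 4F, 6F and 10F and 16.6, 19.5, 20.9 and 18.4 in Sham-WM mice 2F, 9F, 15F and 16F. VSG mice 1F, 8F, 11F and 18F had 15.9, 18.6, 11.9 and 18.1. Mouse 11F was the lowest liver, and the groups overlapped. The log2 fold change of VSG was -0.22 against Sham-Ad lib (95% interval -0.50 to 0.07, edgeR adjusted p = 0.339) and -0.22 against Sham-WM (-0.51 to 0.07, edgeR adjusted p = 0.235). Without mouse 11F they were -0.11 and -0.10. With 2 RUVr factors the difference from Sham-WM was -0.24 and passed the threshold (edgeR adjusted p = 0.0365), against adjusted p between 0.138 and 1.00 in the other settings. Sham-WM against Sham-Ad lib gave 0.00407 (-0.28 to 0.29, edgeR adjusted p = 0.990).

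With H19 left out, 0 of the 5 tested genes passed an edgeR adjusted p of 0.05 for VSG against Sham-Ad lib, where 0.751% of 13054 genes did. For VSG against Sham-WM it was 0 of 5, where 26.9% of genes did. For Sham-WM against Sham-Ad lib it was 0 of 5, where 6.99% did. The counts were also 0 at an unadjusted p under 0.05, where 24.1%, 40.4% and 21.6% of all genes lay in the same order, and with DESeq2 in each comparison. A missed threshold does not show that levels were equal, and the intervals of Gpc3 span more than a log2 unit on either side of its estimate. A second field of the sample labels pairs the libraries with other mice. Grouped by that field, edgeR called 0 genes in each of the 3 comparisons, against 98, 912 and 3509 for the grouping by animal number used here, of which the first ran from 0 to 1089 when 1 liver was left out.

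**Figure D2:**
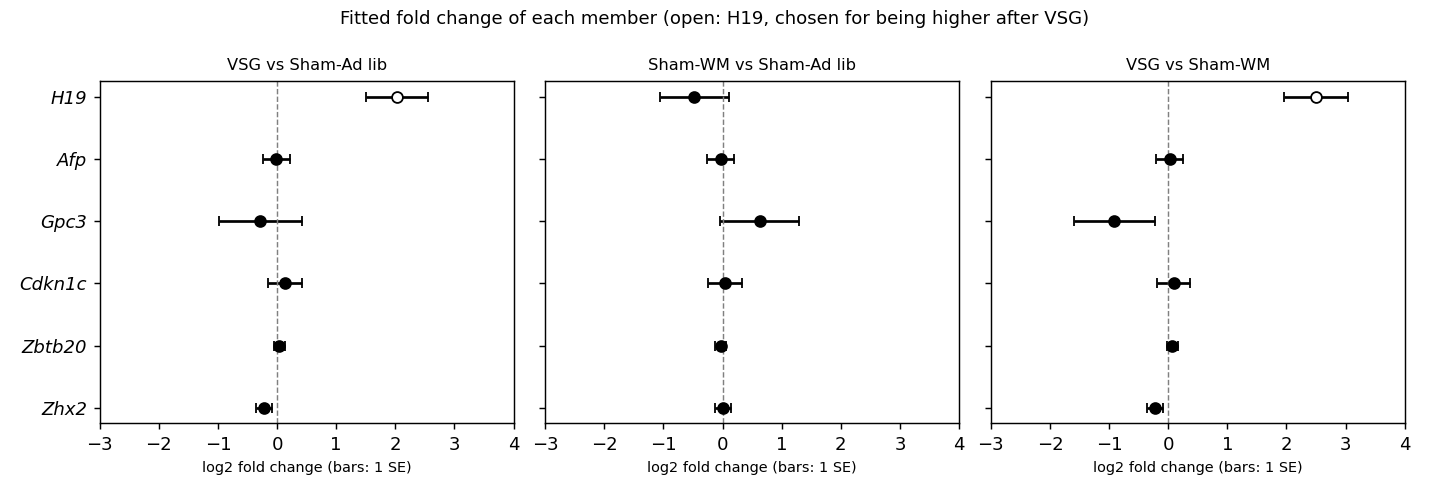
Fitted log2 fold change (horizontal axis) of the 6 genes that passed the low-count filter in the 3 comparisons, with bars of 1 SE and a dashed line at 0. The open points are H19 where it was chosen for being higher after VSG, at 2.02 and 2.50. H19 between the sham groups, at -0.48, was not tested either, and the other genes lay between -0.91 and 0.63.

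Per kilobase of exon, averaged over all 12 livers, Zbtb20 had 5.86 CPM, Zhx2 4.04, Afp 0.935, Cdkn1c 0.842, H19 0.450, Gpc3 0.305 and Igf2 0.0593. The lowest Zbtb20 liver, at 5.12, lay above the highest Zhx2 liver, at 4.70, and the lowest Zhx2 liver, at 2.68, lay above every liver for each of the other genes. Neighbours further down that order overlapped over the livers, Gpc3 and Igf2 included, whose ranges were 0.112 to 1.14 and 0.0132 to 0.143. The place of H19 differed between the groups. Its mean per kilobase in VSG livers, 0.950 CPM, lay above those of Afp (0.940) and Cdkn1c (0.884). In Sham-Ad lib it lay below that of Gpc3, at 0.231 against 0.272 CPM, and in Sham-WM too, at 0.169 against 0.423. The fifth place of H19 over the 12 livers thus held in none of the 3 groups, whereas Zbtb20 and Zhx2 had the highest group means and Igf2 the lowest in each.

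Over the 12 livers, the genes whose log2 CPM followed H19 most closely among 10806 tested genes were Nfkbia (Pearson's r = 0.93), Cd24a (0.92), Fli1 (0.92), Smagp (0.92) and Lbp (0.92). Spearman's rho was 0.92, 0.93, 0.83, 0.88 and 0.92 in that order. Nfkbia encodes an inhibitor of NF-kappa B, Cd24a a cell surface protein, Fli1 an ETS transcription factor, and Lbp the lipopolysaccharide binding protein. The points share the 3 groups, and r of the deviations from group means was 0.77, 0.88, 0.77, 0.83 and 0.79. Ranked by those deviations, 1 of the 5 genes stayed among the 5 closest, ranked by Spearman's rho 1 stayed, and 1 to 5 stayed when 1 liver was left out. Cd24a had 12.5, 8.12, 3.01 and 4.10 CPM in VSG mice 1F, 8F, 11F and 18F, with 1F highest and 11F lowest as for H19.

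Of 19 other fetal liver and oncofetal genes, 11 passed the low-count filter. Igdcc4, like H19, would not have passed it without the livers of the group where it was highest. Such genes of this and the following lists are given no test and left out of the counts and medians. For VSG against Sham-WM edgeR called 4 of the other 10 higher and 0 lower, where it called 15% of all 13054 genes higher and 11.9% lower, with a median log2 fold change of 0.28 against 0.03 over all genes. With such genes left out of all genes too, those shares were 14.4% and 12.2% of 12419. For VSG against Sham-Ad lib edgeR called 0 of 10, with 4 at an unadjusted p under 0.05, 1 called higher by DESeq2 and a median of 0.73 against 0.03. Over all genes 24.1% had an unadjusted p under 0.05 there, and DESeq2 called 5.46% higher and 3.75% lower. For Sham-WM against Sham-Ad lib 1 was lower, where edgeR called 3.45% of all genes lower and 3.53% higher, with a median of -0.12 against 7.9e-04. Igdcc4, a gene of the DCC family of receptors, had 27.5, 12.8, 7.23 and 1.08 CPM in VSG mice 1F, 8F, 11F and 18F and between 0 and 0.563 in Sham-WM mice, while Sham-Ad lib mouse 10F had 1.76. Its VSG livers lay above all Sham-WM livers, where 26.2% of all genes tested had no overlap, and they overlapped with Sham-Ad lib. Its fitted log2 fold change against Sham-WM was 5.65 (SE 1.09), which is given with no test. Ly6d was higher in VSG than in Sham-WM by 3.33 (SE 0.78, edgeR adjusted p = 0.00903), the trefoil factor gene Tff3 by 4.08 (SE 1.02, edgeR adjusted p = 0.0121), lipoprotein lipase (Lpl) by 1.45 (SE 0.38, edgeR adjusted p = 0.0159) and Cd24a by 1.65 (SE 0.45, edgeR adjusted p = 0.0174) on the log2 scale. Tff3 was lower in Sham-WM than in Sham-Ad lib by a log2 fold change of -4.68 (SE 1.03, edgeR adjusted p = 0.0165), with overlapping groups. With 2 RUVs factors Igdcc4 gave 1.49, and the 4 higher genes lost the call, at 0.94 for Ly6d, 2.30 for Tff3, 0.26 for Lpl and 0.68 for Cd24a, whose call was also lost without Sham-WM mouse 15F or VSG mouse 1F. The Tff3 call between the sham groups was lost without Sham-WM mouse 2F, 15F or 16F. Its value there ran from -3.47 without Sham-Ad lib mouse 10F to -5.38 without Sham-WM mouse 9F. Ahsg, the fetuin gene, was the most abundant of the list at between 6148 and 9284 CPM, and Lin28b and Sall4 were at 0 counts in every liver.

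Of 30 other genes listed as imprinted growth genes, 18 passed the filter. Peg10 and Ndn would not have done so without the group where each was highest, and the other 16 were counted. Ddc, the aromatic amino acid decarboxylase gene, was higher in Sham-WM, at 67.8 ± 10.3 CPM (SD, n = 4), than in Sham-Ad lib, at 25.6 ± 5.84, with a log2 fold change of 1.40 (SE 0.19, edgeR adjusted p = 9.8e-04). It was lower in VSG than in Sham-WM by -1.30 (SE 0.19, edgeR adjusted p = 9.0e-04). The amino acid transporter gene Slc38a4, the most abundant of the list, was lower in Sham-WM than in Sham-Ad lib by -0.79 (SE 0.16, edgeR adjusted p = 0.0113). Those were the only edgeR calls, 1 higher and 1 lower for Sham-WM against Sham-Ad lib and 1 lower for VSG against Sham-WM, where 3.53%, 3.45% and 11.9% of all genes were. DESeq2 also called Kcnq1ot1 higher in Sham-WM than in Sham-Ad lib and Slc38a4 higher in VSG than in Sham-WM, where it called 5.59% and 16.6% of all genes higher. VSG against Sham-Ad lib had 0 edgeR calls, with 5 of 16 at an unadjusted p under 0.05 and 2 called higher by DESeq2, where 24.1% and 5.46% of all genes were. Medians were 0.10 for VSG against Sham-Ad lib, -0.11 for Sham-WM against Sham-Ad lib and 0.19 for VSG against Sham-WM. Rtl1 and Magel2 were at 0 counts in every liver. Whether the listed genes are imprinted in liver was not tested, and counts per gene do not separate the parental alleles.

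Of 21 neighbours in the H19, Igf2 and Cdkn1c domains, 11 were tested, with medians of 0.17, 0.09 and 0.28 in the same order of comparisons. For VSG against Sham-WM edgeR called 3 of the 11, a share like the 26.9% over all genes. Lsp1, a leukocyte protein gene close to H19, was higher in VSG than in Sham-WM by 1.77 (SE 0.42, edgeR adjusted p = 0.00882), and Cd81, a tetraspanin gene, by 0.49 (SE 0.10, edgeR adjusted p = 0.00399). Kcnq1, a potassium channel gene, was lower by -0.89 (SE 0.27, edgeR adjusted p = 0.0281). Cd81 was also lower in Sham-WM than in Sham-Ad lib by -0.41 (SE 0.10, edgeR adjusted p = 0.0256), the 1 of 11 called by edgeR, where 3.45% of all genes were lower. VSG against Sham-Ad lib had 0 edgeR calls, with 5 of 11 at an unadjusted p under 0.05 and 2 called higher by DESeq2, where 24.1% and 5.46% of all genes were. With 2 RUVs factors the 3 calls between VSG and Sham-WM were lost, at 0.24 for Lsp1, 0.53 for Cd81 and -0.70 for Kcnq1, so that the value of Cd81 was not smaller. The Kcnq1 call was also lost without 9F, 15F, 1F or 8F, and the Cd81 call between the sham groups was lost in 7 of 12 fits that each left out 1 liver and, at -0.42, without the low-count filter. The Kcnq1 call was lost at nearly the same value when only both groups compared were fitted (-0.89) and without the low-count filter (-0.91). Ctsd, a lysosomal protease gene, was the most abundant neighbour, and Ins2, Mir675, Mir483, Syt8 and Th were at 0 counts in every liver.

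Of 15 genes for receptors, receptor adaptors, binding proteins and mRNA-binding proteins of the IGF2 pathway, 13 were tested, with medians of -0.37, -0.12 and -0.24. The only edgeR call was Irs1, an adaptor of the insulin and IGF1 receptors, which was lower in VSG, at 4.08 ± 2.34 CPM (SD, n = 4), than in Sham-WM, at 13.5 ± 5.72, by -1.70 on the log2 scale (SE 0.39, edgeR adjusted p = 0.00829). It was 1 of 13, where 11.9% of all genes were lower. For that comparison DESeq2 called 1 lower, where it called 14.7% of all genes lower, and 1 higher, where it called 16.6%. The higher one was Igfbp4, the most abundant of these genes, at 0.27 (edgeR adjusted p = 0.120, DESeq2 adjusted p = 0.0340). VSG against Sham-Ad lib had 0 edgeR calls with 5 of 13 at an unadjusted p under 0.05, where 24.1% of all genes were, and Sham-WM against Sham-Ad lib 0 with 2, where 21.6% were. DESeq2 called 0 in both, where it called 5.46% of all genes higher and 3.75% lower in the first and 5.59% and 5.48% in the second. Of 13 paralogs of the listed genes, 11 were tested, with medians of -0.18, 0.02 and -0.24. For VSG against Sham-WM edgeR called 2 lower, where 11.9% of all genes were. For VSG against Sham-Ad lib it called 0, with 1 at an unadjusted p under 0.05 and 1 lower with DESeq2, where 24.1% and 3.75% of all genes were, and between the sham groups edgeR called 0, with 0 at an unadjusted p under 0.05 and 0 by DESeq2, where edgeR called 6.99% of all genes, 21.6% were under 0.05, and DESeq2 called 5.59% higher and 5.48% lower. Albumin was lower in VSG than in Sham-WM by -0.73 (SE 0.22, edgeR adjusted p = 0.0294) and afamin (Afm) by -0.43 (SE 0.14, edgeR adjusted p = 0.0392), while Afp of the same gene family gave 0.03. With 2 RUVs factors albumin gave -0.23, afamin -0.0579 and Irs1 -0.52, and the 3 calls were lost. Those of albumin and afamin were also lost in 6 of 12 fits that each left out 1 liver and, at nearly the same values of -0.73 and -0.43, when only both groups compared were fitted. That of albumin was lost without the low-count filter too, at -0.75.

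Kupffer cell and macrophage markers were, like H19, highest in VSG livers, and their part in the level of H19 was not tested. In bulk liver, a change in the number of cells of a type cannot be told apart from a change of RNA per cell. Of 10 Kupffer cell and macrophage markers, 10 were higher in VSG than in Sham-WM, where 15% of all genes were, with a median log2 fold change of 2.07. Against Sham-Ad lib edgeR called 2 higher in VSG (Clec4f and Vsig4), where it called 0.467% of all genes, with 10 of 10 at an unadjusted p under 0.05 (24.1% of all genes), 9 called higher by DESeq2 (5.46%) and a median of 1.63. Those 2 calls were lost in 8 of 12 fits that each left out 1 liver, with 2 RUVs factors, at 0.88 and 1.00 in place of 1.44 and 1.72, and, at nearly the same values, with only both groups or with at least 10 counts in every library. With 2 RUVs factors 9 of the 10 calls against Sham-WM were lost, at values from 0.56 for Timd4 to 0.99 for Adgre1, and that of Csf1r was kept, at 1.08. For Sham-WM against Sham-Ad lib there were 0 edgeR calls (6.99% of all genes), 0 at an unadjusted p under 0.05 (21.6%) and 0 with DESeq2 (5.59% higher and 5.48% lower). Their summed level was 202, 646, 266 and 228 CPM in Sham-Ad lib mice 3F, 4F, 6F and 10F, 284, 238, 297 and 177 in Sham-WM mice 2F, 9F, 15F and 16F, and 1828, 942, 880 and 659 in VSG mice 1F, 8F, 11F and 18F. Mouse 1F was highest and 4F was the highest Sham-Ad lib liver, as for H19. Mouse 16F had the highest H19 of the Sham-WM livers and the lowest marker sum, and the lowest VSG liver was 18F for the markers and 11F for H19. The most abundant marker was Cd5l.

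Of 14 proliferation genes that passed the filter, Ccna2 and Ccnb2 would not have done so without the VSG livers, where they were highest. Of the other 12, 5 were higher in VSG than in Sham-WM, where 15% of all genes were, with a median of 0.42, among them Ccne1 by 3.18 (SE 0.46, edgeR adjusted p = 9.0e-04) and Top2a by 2.46 (SE 0.64, edgeR adjusted p = 0.0148). Top2a had 11.7 and 9.65 CPM in VSG mice 1F and 8F and 1.43 and 2.16 in 11F and 18F, overlapping with Sham-WM. Cdk1 gave 1.79 (SE 0.48) and Birc5 1.24 (SE 0.35). With 2 RUVs factors 4 of the 5 calls were lost, all but that of Ccne1, at 0.51 for Top2a and 0.37 for Birc5, and Mki67 and Cdk1 changed sign, at -0.22 and -0.18. Leaving out 1 liver ended the call of Mki67 in 7 of 12 fits, of Cdk1 without 15F or 1F and of Birc5 without 16F or 1F. Ccne1 was also lower in Sham-WM than in Sham-Ad lib, by -2.01 (SE 0.47, edgeR adjusted p = 0.0218), a call lost without 10F, 15F or 16F, and the 1 of 12 there, where 3.45% of all genes were lower. For VSG against Sham-Ad lib edgeR called 0 of the 12, where it called 0.751% of all genes, with 5 at an unadjusted p under 0.05 and 3 higher with DESeq2, where 24.1% and 5.46% of all genes were. The summed level of the list, led by Pcna, ranged from 80.7 to 130 CPM in VSG livers, 69.0 to 103 in Sham-WM livers and 60.9 to 103 in Sham-Ad lib livers.

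The 10 hepatocyte markers were all detected, led by Alb, with summed levels of 109485 to 126355 CPM in Sham-Ad lib, 125704 to 157337 in Sham-WM and 80083 to 124963 in VSG livers. For VSG against Sham-WM 2 were lower (Alb and Cps1), where 11.9% of all genes were, with a median of -0.39, and both calls were lost with 2 RUVs factors, at -0.23 in place of -0.73 for Alb and -0.42 in place of -0.83 for Cps1. Skeletal muscle is another tissue that makes H19, and its part in the level of H19 was not tested. The 12 muscle markers summed to between 0.153 and 0.844 CPM in the 12 livers, and 0 of 12 passed the filter. The most abundant was Mylpf, and Ckm, Myh1, Myh2 and Tnnc2 were at 0 counts everywhere. Of 12 stellate cell and fibroblast markers, led by Dcn, 1 was higher (Rgs5) and 4 were lower (Lrat, Reln, Hgf and Acta2) in VSG than in Sham-WM, where 15% and 11.9% of all genes were. The 5 calls were lost with 2 RUVs factors, at 0.27 in place of 0.48 for Rgs5, -0.95 in place of -1.33 for Lrat, -0.55 in place of -1.06 for Reln and -0.80 in place of -1.36 for Hgf, while Acta2 stayed at -1.38 in place of -1.39. The call of Rgs5 was also lost without 15F, 16F or 1F, and that of Acta2 without 9F, 15F, 1F or 11F. Lrat was also higher in Sham-WM than in Sham-Ad lib, by 0.82 (SE 0.22), where 3.53% of all genes were, a call lost in 7 of 12 fits that each left out 1 liver. The sums were 266 to 443 CPM in VSG and 360 to 447 in Sham-WM livers. Of 10 endothelial markers, led by Fcgr2b, 2 were lower (Kdr and Bmp2), against 11.9% of all genes, with sums of 158 to 275 and 193 to 289 CPM. Both calls were lost with 2 RUVs factors, at -0.41 in place of -0.89 for Kdr and -0.22 in place of -0.94 for Bmp2, and that of Bmp2 in 7 of 12 fits that each left out 1 liver and, at nearly the same value, with only both groups. Of 8 cholangiocyte and progenitor markers that passed the filter, led by Spp1, Krt23 would not have done so without the Sham-Ad lib livers, where it was highest. Of the other 7 edgeR called 0 for VSG against Sham-WM, with 2 at an unadjusted p under 0.05, where 40.4% of all genes were. DESeq2 called 1 of the 7 higher and 1 lower, where it called 16.6% and 14.7% of all genes. The mean sums were 80.3 ± 24.3 (SD, n = 4) in VSG and 63.1 ± 4.70 CPM in Sham-WM livers. Krt23 had between 1.57 and 17.7 CPM in Sham-Ad lib and between 0.119 and 0.527 CPM in VSG livers, with no overlap, where 9.21% of all genes tested had none. Its fitted log2 fold change of -4.31 (SE 0.88) is given with no test. That value was -3.02 without Sham-Ad lib mouse 6F and -3.07 with 2 RUVs factors. Of 4 adipocyte markers that passed the filter, Cidea would not have done so without the Sham-Ad lib livers, where it was highest, and 3 were counted. They were led by Car3, the 1 of 3 that edgeR called lower in VSG than in Sham-WM, where 11.9% of all genes were, a call lost with 2 RUVs factors at -0.69 in place of -1.35. DESeq2 called Car3 lower and Cfd higher there, 1 of 3 each, where it called 14.7% and 16.6% of all genes. The sums were 1065 to 2937 CPM in VSG and 4012 to 5891 CPM in Sham-WM livers, with Lep at 0 counts. They were nearly all Car3, whose mean was 1980 CPM of a mean sum of 1992 in VSG and 5033 of 5041 in Sham-WM. The sums thus gave the level of Car3, and which cells made it was not tested. Cfd was lower than in Sham-Ad lib both in Sham-WM, by -4.44 (SE 0.58, edgeR adjusted p = 8.8e-04), a call kept in 12 of 12 fits that each left out 1 liver, and in VSG, by -2.87 (SE 0.52, edgeR adjusted p = 0.0435), a call kept in 4 of 12. The second call was also lost, at values no smaller, with 2 RUVs factors (-3.81) and with only both groups (-2.88). Cfd was the 1 of 3 lower in each, where 3.45% and 0.283% of all genes were. The 6 red blood cell precursor markers given here, led by Hbb-bs, had sums of 142 to 730 CPM in VSG and 151 to 313 CPM in Sham-WM livers. The 1 tested pancreas marker, Cela1, was not called by edgeR or DESeq2, its unadjusted p was not under 0.05, and 5 of 10 pancreas markers were at 0 counts.

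**Figure D3:**
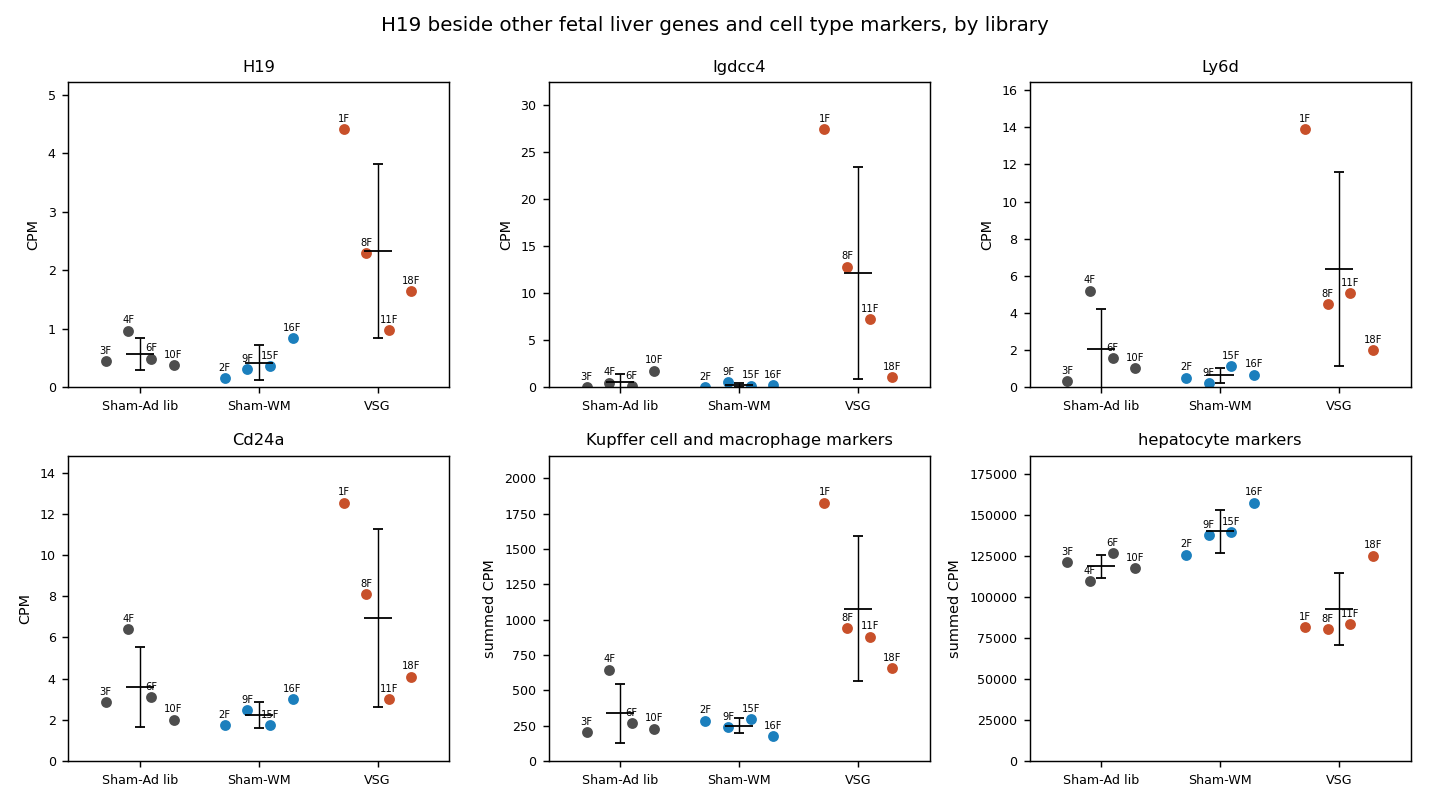
H19, the fetal liver genes Igdcc4, Ly6d and Cd24a, and the summed Kupffer cell and hepatocyte markers (vertical axes, CPM from 0) in each of the 12 livers, with the mean and SD (n = 4) of each group in black. These panels were picked after the values were seen. EdgeR called 4 of the 10 counted fetal liver genes higher in VSG than in Sham-WM, where it called 15% of all genes higher, and Igdcc4 is given with no test. VSG mouse 1F was the highest liver in the first 5 panels, at 4.42 CPM for H19 and 1828 CPM for the Kupffer markers, and the hepatocyte markers were lowest in VSG mouse 8F at 80083 CPM.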

How the data were processed

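Liver RNA of 12 mice was sequenced. Per the submitters' notes and the study's methods, the authors aligned reads to mm10 with TopHat2 2.1.1 and deposited featureCounts counts per Ensembl gene, not normalized. Annotation release, strand setting and handling of multi-mapping reads are not given in the sources used here. Of 46078 genes, 45143 matched GENCODE M21 on the reference chromosomes. Libraries were grouped by the animal number shared by library name and sample title. EdgeR 4.0.16 (R 4.3.3) kept 13054 genes (filterByExpr, minimum count 10, minimum total 15), and its quasi-likelihood test compared 3 group means over all 12 libraries with TMM factors, called at a Benjamini-Hochberg adjusted p of 0.05. Log2 CPM used a prior count of 2. Igf2 failed the filter and was compared by exact permutation tests. The members and lists were chosen with earlier results of these data known. Named were all 7 members, from each list the called genes (at most 4 per comparison, smallest adjusted p) and the most abundant gene, and the 5 genes most like H19. Mki67, Ccnb2, Ccna2, Acta2 and Kcnq1ot1 lie outside that rule and were named after their values were seen. So were genes with 0 counts and genes that would have failed the filter without the group where they were highest. Markers of the cell types were given mainly as counts and sums, and 1 red blood cell marker is not reported here, so that list has a sum and no count of calls. Alternatives were DESeq2 1.42.0, other factors, filters and groupings, RUVr and RUVs factors (k = 2, written from their definitions) and leaving out each library. No pair of replicates was a copy (lowest chi-square per gene 16.8). The methods were also run on simulated data, whose outcome is not reported here.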

Additional observations from a re-analysis of the deposited data

Results flagged for a closer look

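In 2 of the 7 genes, 1 liver stood far from the other livers of its group, by a gap of more than 0.829 of the group's range. Gpc3 had 3.06 CPM in Sham-WM mouse 15F, where the other Sham-WM livers had 0.306 to 0.675. Cdkn1c had 2.36 CPM in Sham-WM mouse 16F, where the others had 1.43 to 1.53. Among the summed lists, the Kupffer cell and macrophage markers had 646 CPM and the stellate cell and fibroblast markers 531 CPM in Sham-Ad lib mouse 4F, which was also the highest Sham-Ad lib liver for H19. The hepatocyte markers had 124963 CPM and the paralogs, mostly albumin, 99732 CPM in VSG mouse 18F. The red blood cell precursor markers had 589 CPM in Sham-Ad lib mouse 6F, and the skeletal muscle markers 0.153 CPM in Sham-WM mouse 15F. Each gene and each list was screened in every group. Chance would place about 1 in 20 groups of 4 this far out if values were normally distributed, which low counts and sums need not be. What set these livers apart was not tested.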

How the results depend on the processing

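With H19 left out, 0 of these genes were called in every setting run except 2 RUVr factors, which called 1, Zhx2, for VSG against Sham-WM (-0.24). RUVr factors are built from residuals around the group means, so they remove spread within groups only, whereas RUVs factors followed the groups in part (R2 0.320 and 0.528). H19 was chosen for being higher after VSG in these livers, so the sign it kept in both VSG comparisons is no support for a rise. Its log2 fold change lay between 1.53 and 2.40 against Sham-Ad lib and between 2.00 and 3.07 against Sham-WM without each liver in turn. Against Sham-WM it moved to 0.70 when grouped by the description field and 1.75 with 2 RUVs factors. The lowest VSG over the highest Sham-Ad lib liver for H19 fell to 0.865 with library totals and 0.991 with median-of-ratios factors, both tried after the data were seen. Genes called for VSG against Sham-Ad lib, 98, were 1202 with DESeq2, 628 without filter, 0 with at least 10 counts in every library, 0 by the description field, 3016 with RUVr, 6 with RUVs and 0 with only the 2 groups, and 0 to 1089 without each liver in turn (227 when 8F was left out, 903 for 4F, 1089 for 18F, and at most 3 for any other liver except 11F). For Sham-WM against Sham-Ad lib, 912, they were 1445 with DESeq2, 0 by the description field, 2193 with RUVr, 1730 with RUVs, 1399 with the 2 groups and 424 to 1311. For VSG against Sham-WM, 3509, they were 0 by the description field, 5491 with RUVr, 509 with RUVs and 2196 to 3868. The causes were not tested. For Igf2, which failed the filter, the exact p were 0.514, 0.286 and 0.229 with CPM in place of log2 CPM, and its difference was computed under no other alternative. Among the other 6 genes, the values whose signs turned had not passed the test or, for H19, had none: Zhx2 for Sham-WM against Sham-Ad lib gave -6.5e-05 (DESeq2), -4.0e-05 (median of ratios), -0.0048 (upper quartile), -0.015 (no filter), -2.1e-04 (RUVr), -0.053 (RUVs) and -0.0467 to 0.0623 without each liver. For Afp it was 0.0196 (VSG against Sham-Ad lib, upper quartile), 0.0064 (Sham-WM against Sham-Ad lib, description field), 0.0096 (same, RUVs), -0.0462 and -0.16 (VSG against Sham-WM, description field and RUVs), with -0.12 to 0.10, -0.17 to 0.12 and -0.13 to 0.16 without each liver. For Cdkn1c it was -0.19 and -0.37 (VSG against Sham-Ad lib and Sham-WM, description field) and -0.0318 (Sham-WM against Sham-Ad lib, RUVs), with -0.0926 to 0.31, -0.15 to 0.14 and -0.12 to 0.28. For Zbtb20 it was -9.0e-04 (VSG against Sham-Ad lib, no filter) and -0.0852 (description field), with -0.0025 to 0.0533 and, between the sham groups, -0.0632 to 0.0219. For Gpc3 it was -0.29 and for H19 0.68 (Sham-WM against Sham-Ad lib, description field), with -0.56 to 0.94 and -1.52 to 0.28 (VSG against Sham-WM) for Gpc3. By the description field, list genes that edgeR had called also turned. They were Cfd 0.86 (VSG against Sham-Ad lib) and, for Sham-WM against Sham-Ad lib, Slc38a4 0.40, Ddc -0.28, Cd81 0.0924, Lrat -0.55 and Cfd 1.23. For VSG against Sham-WM they were Tff3 -0.99, Lsp1 -0.0666, Mki67 -0.17, Kdr 0.17 and Bmp2 0.51. Krt23, which is given with no test, turned too, at 1.00 (VSG against Sham-Ad lib). With RUVs, Mki67 gave -0.22 and Cdk1 -0.18. Of the 5 genes most like H19, 1 remained among the closest with Spearman's rho, 1 with deviations from group means, and 1 to 5 without each liver. H19, Igf2 and Gpc3 had no value with at least 10 counts in every library, nor did H19 between the sham groups and Gpc3 for VSG against Sham-WM with only the 2 groups. No paired analysis was possible because the groups share no replicate number. The S number that ends each library name, whose meaning is not given in the sources used here, runs in blocks by group and cannot be told apart from the groups, and H19, Igf2 and Gpc3 rest on few counts per liver.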
